A study of Capra hircus with 10 samples.

Results

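Interferon-stimulated genes were followed in whole goat ovaries of the luteal and follicular phases. The set was defined by symbol and held 9 genes: ISG15, MX1, MX2, IFIT1, IFIT2, IFIT3, OAS2, RSAD2 and IRF7. Of these, 7 were found among the protein-coding entries of the transcript table, carried by 9 transcripts, and IFIT1 and OAS2 were not analysed here. All 7 genes found had FPKM values (fragments per length of transcript, relative to the mapped total) that reached 0.1 in 5 or more ovaries, and were tested among 15359 of the 20587 gene symbols with mRNA.

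The ovaries came from Anhui white goats at a slaughterhouse and were assigned by the labels to the follicular phase (5 ovaries) or the luteal phase (5 ovaries). No treatment and no age are given for the goats in the sources used here. From the total RNA of each whole ovary, 1 strand-specific library was made after removal of ribosomal RNA. Nothing in the labels states that the ovaries came from separate goats, so that the p-values measure only the spread between these ovaries. In bulk tissue, fewer cells of a type and less RNA per cell cannot be told apart.

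Interferons are cytokines that bind receptors on the cell surface and activate the kinases of the JAK family, which phosphorylate factors such as STAT2. Together with IRF9, these enter the nucleus and switch on interferon-stimulated genes, whose products restrict viral replication and tune the response itself. In ruminants the same genes are also known as responders to the interferon that the conceptus secretes in early pregnancy, in the uterus, in blood leukocytes and in the corpus luteum.

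The luteal cell markers followed the phase labels. Summed over 4 genes (STAR, CYP11A1 under the symbol LOC102173131, LHCGR and PTGFR), they reached 4750 to 6540 FPKM in the luteal ovaries and 122 to 170 FPKM in the follicular ovaries. Over all genes tested, follicular ovaries 3 and 4 were more alike than other ovaries of their phase (r = 0.99 against 0.969 to 0.983 in 9 other pairs), and the same held for luteal ovaries 4 and 5 (r = 0.992 against 0.972 to 0.981 in 9 other pairs). The labels do not say whether either pair shares a goat, so the differences, correlations, spread and likeness of the interferon-stimulated genes were also computed with each pair averaged and counted as 1 ovary.

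None of the 7 interferon-stimulated genes passed the test for a difference between the phases, while single ovaries of the same phase differed from each other. The largest ratio was 10.3-fold for MX2, follicular ovary 1 over follicular ovary 2, and the other genes reached at most 6.95-fold (MX1). The MX2 value of follicular ovary 1 came in part from a transcript model that was listed at 0 in ovary 2. On the log2 scale all 7 genes were below their phase mean in follicular ovary 2 and in luteal ovaries 1 and 2, and above it in follicular ovaries 3 and 4 and in luteal ovary 3. Some of these deviations were small, such as that of IFIT2 in luteal ovary 2 (-0.05) and those of MX2 in follicular ovaries 3 and 4 (0.09 and 0.16), where MX2 was below its level in ovaries 1 and 5. The genes are taken by role, first the regulator and then the effectors.

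IRF7 is the transcription factor that amplifies type I interferon synthesis and is itself induced by interferon. Its FPKM was 1.62, 0.8, 2.33, 2.52 and 1.81 in follicular ovaries 1 to 5. In luteal ovaries 1 to 5 it was 1.79, 1.36, 2.48, 2.67 and 2.82. The phases overlapped, with follicular ovary 2 below every luteal ovary and luteal ovaries 4 and 5 above every follicular ovary. The means were 2.23 ± 0.622 FPKM (luteal) and 1.82 ± 0.676 FPKM (follicular) with the SD of 5 ovaries each. The luteal minus follicular difference on the log2(FPKM + 0.1) scale was 0.32 (SE 0.29, 95% interval -0.32 to 0.97), with an adjusted p of 0.393 by limma. It was 0.07 without follicular ovary 2.

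ISG15 encodes a ubiquitin-like protein that is conjugated to other proteins during the interferon response and is also secreted. Its FPKM was 17.1, 8.36, 42.0, 54.8 and 13.2 in follicular ovaries 1 to 5. Luteal ovaries 1 to 5 held 11.3, 9.53, 27.6, 26.3 and 22.2. The luteal values lay within the range of the follicular values, which was set by ovary 2 at the low end and by ovaries 3 and 4 at the high end. The means were 19.4 ± 8.43 FPKM (luteal) and 27.1 ± 20.2 FPKM (follicular) with the SD of 5 ovaries each. The log2 difference was -0.26 (SE 0.50, 95% interval -1.37 to 0.84, limma adjusted p = 0.692). It was -0.60 without follicular ovary 2 and turned to 0.08 without follicular ovary 4, so that no direction is given for this gene.

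MX1 and MX2 encode dynamin-like GTPases that block the early steps of viral infection, and the genes stand next to each other in the annotation that RefSeq gives for the ARS1.2 assembly. They are paralogs, and how fragments that match both were divided is not given in the sources used here. The FPKM of MX1 was 23.6, 7.48, 40.8, 52.0 and 12.2 in follicular ovaries 1 to 5. The corresponding luteal values were 9.5, 10.5, 28.7, 20.1 and 19.4. MX1 thus repeated the order of the follicular ovaries seen for ISG15, with the lowest follicular value in ovary 2, the highest follicular values in ovaries 3 and 4, and the highest luteal value in ovary 3. The means were 17.7 ± 7.90 FPKM (luteal) and 27.2 ± 18.9 FPKM (follicular) with the SD of 5 ovaries each. The log2 difference of MX1 was -0.40 (SE 0.51, 95% interval -1.51 to 0.70, limma adjusted p = 0.539). Follicular ovaries 2 and 4 moved it in opposite ways, to -0.78 without ovary 2 and to -0.09 without ovary 4.

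MX2 followed another order. Its FPKM was 4.23, 0.41, 2.1, 2.23 and 3.31 in follicular ovaries 1 to 5. In luteal ovaries 1 to 5 it was 3.77, 1.97, 11.1, 3.67 and 3.95. The highest follicular value was in ovary 1 rather than in ovaries 3 and 4, luteal ovary 3 stood far above the other luteal ovaries, and the phases overlapped. The means were 4.88 ± 3.55 FPKM (luteal) and 2.46 ± 1.43 FPKM (follicular) with the SD of 5 ovaries each. MX2 had the lowest adjusted p of the 7 genes, with a log2 difference of 1.03 (SE 0.56, 95% interval -0.20 to 2.26, limma adjusted p = 0.157). The difference was 0.52 without follicular ovary 2 and 0.68 without luteal ovary 3, and over all 21 alternatives its adjusted p lay between 0.0601 and 0.327.

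IFIT2 and IFIT3 encode tetratricopeptide-repeat proteins that act on viral and cellular translation, IFIT3 as a partner of other family members. They are neighbouring paralogs, and the caution on fragments shared between copies holds for them too. The FPKM of IFIT2 was 5.28, 2.96, 7.31, 7.44 and 6.08 in follicular ovaries 1 to 5. Its luteal values were 3.06, 4.13, 6.61, 3.93 and 4.31. Except for ovary 2, every follicular ovary was above every luteal ovary other than ovary 3. The log2 difference of IFIT2 was -0.37 (SE 0.26, 95% interval -0.93 to 0.20, limma adjusted p = 0.267), from means of 4.41 ± 1.32 FPKM (luteal) and 5.82 ± 1.83 FPKM (follicular) with the SD of 5 ovaries each. Follicular ovary 2 decided this call. Without it IFIT2 was higher in the follicular phase, by a log2 difference of -0.59 with an adjusted p of 0.0334 by limma, whereas with the closest ovaries averaged the difference was -0.25 (limma adjusted p = 0.541).

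The FPKM of IFIT3 was 13.9, 7.82, 21.9, 22.1 and 17.9 in follicular ovaries 1 to 5. In the luteal phase, ovaries 1 to 5 held 10.03, 10.5, 23.9, 16.4 and 14.9. The phases overlapped almost fully, with the lowest value in follicular ovary 2 and the highest in luteal ovary 3. The log2 difference was -0.12 (SE 0.30, 95% interval -0.79 to 0.54, limma adjusted p = 0.765), from means of 15.1 ± 5.61 FPKM (luteal) and 16.7 ± 5.99 FPKM (follicular) with the SD of 5 ovaries each. It was -0.37 without follicular ovary 2 and 0.01 without luteal ovary 1, so that no direction is given for IFIT3.

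RSAD2 encodes viperin, a radical SAM enzyme that makes a chain-terminating nucleotide against viral RNA synthesis. Its FPKM was 3.21, 1.69, 9.22, 9.78 and 3.95 in follicular ovaries 1 to 5. In luteal ovaries 1 to 5 it was 1.77, 1.61, 6.54, 4.4 and 4.5. Follicular ovaries 3 and 4 were above every luteal ovary, and the remaining follicular ovaries were within the luteal range. The log2 difference was -0.46 (SE 0.51, 95% interval -1.59 to 0.66, limma adjusted p = 0.484), from means of 3.77 ± 2.08 FPKM (luteal) and 5.57 ± 3.68 FPKM (follicular) with the SD of 5 ovaries each. The difference of RSAD2 was -0.81 without follicular ovary 2 and -0.19 without follicular ovary 4.

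**Figure D1:**
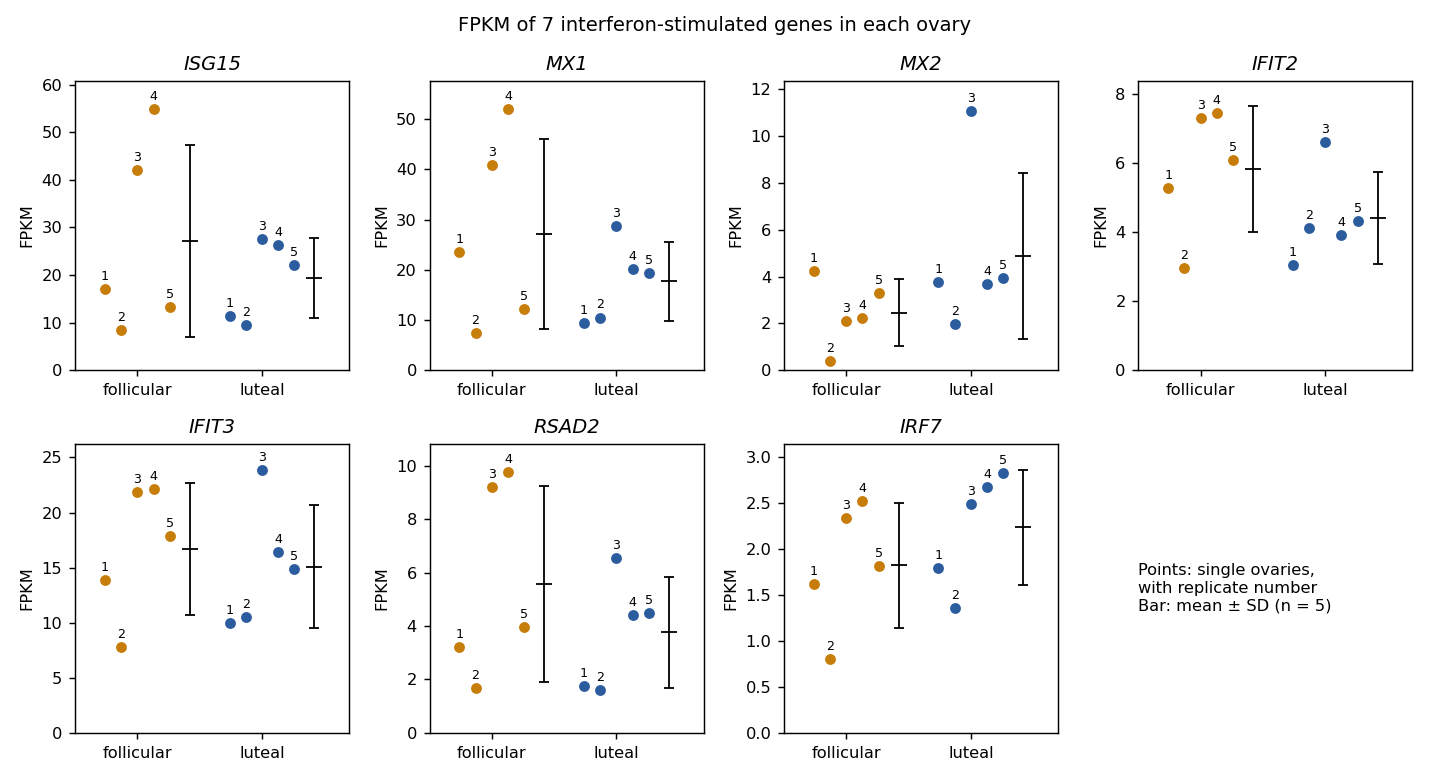
FPKM of the 7 interferon-stimulated genes on a linear axis from 0, with a panel per gene, a point per ovary carrying its replicate number, and the mean ± SD of 5 ovaries beside each phase. In all 7 panels follicular ovary 2 is the lowest follicular point, in 6 of them luteal ovary 3 is the highest luteal point, and in every panel the phases overlap.

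The panels of FPKM by ovary show the spread within a phase beside the distance between the phases. Of the 7 genes, 0 passed an adjusted p under 0.05 in limma and 0 had an unadjusted p under 0.05. In the same fit, 43.7% of all genes tested were called (15.9% luteal higher and 27.8% follicular higher), and 52.2% had an unadjusted p under 0.05. The phase ranges of all 7 genes overlapped, whereas 28.4% of all genes tested had ranges that did not. The log2 difference was positive for MX2 and IRF7 and negative for the other 5 genes, with a median of -0.26 beside -0.14 over all genes tested. The median was -0.18 with each ovary shifted to a common median and -0.17 as TPM, again with 2 positive and 5 negative values. With the closest ovaries averaged, 0 of the 7 genes were called by limma, and the log2 difference was -0.08 for ISG15, -0.20 for MX1, 1.09 for MX2, -0.25 for IFIT2, -0.03 for IFIT3, -0.31 for RSAD2 and 0.36 for IRF7. A p that misses the threshold does not show that the phases were equal: the intervals allow differences as large as 2.26 for MX2 and -1.59 for RSAD2 on the log2 scale.

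At the level of transcripts, 5 of the genes had a single transcript and MX1 and MX2 had 2 each. Of the 9 transcripts, 8 passed the filter on low values and 0 were called by limma, beside 17.3% of all transcripts tested. An unadjusted p under 0.05 was found for 1 of them, the MX2 transcript XM_018051642.1. Its FPKM was 2.2, 0.41, 2.1, 2.23 and 0.825 in follicular ovaries 1 to 5. The luteal ovaries held, in the same order, 3.77, 1.97, 9.15, 3.67 and 3.95. Except for ovary 2, every luteal ovary was above every follicular ovary. The log2 difference of XM_018051642.1 was 1.53 (SE 0.51, 95% interval 0.41 to 2.66, limma adjusted p = 0.0641), and luteal ovary 2 decided the call, since without it the difference was 1.78 with a limma adjusted p of 0.0473.

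The other MX2 transcript, XM_018051644.1, was below the filter and was listed at 0 in 7 of the 10 ovaries. In follicular ovaries 1 and 5 and in luteal ovary 3 it was listed at 2.03, 2.48 and 1.92 FPKM. The MX2 values of follicular ovaries 1 and 5 thus came in large part from a transcript model that was listed at 0 in the other follicular ovaries, and the division of MX2 between its models varied from ovary to ovary. Its share of the gene ranged from 0.0 to 75.0%. For MX1, XM_018051649.1 held 71.7 to 93.0% of the gene (median 90.3%) and XM_018051653.1 held 7.04 to 28.3% (median 9.7%). The log2 difference was -0.45 (SE 0.59, limma adjusted p = 0.649) for XM_018051649.1 and -0.11 (SE 0.42, limma adjusted p = 0.888) for XM_018051653.1.

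In FPKM, which are per length and so can be set beside each other between genes, the order of the mean levels over the 10 ovaries was ISG15 (23.2 FPKM), MX1 (22.4 FPKM), IFIT3 (15.9 FPKM), IFIT2 (5.11 FPKM), RSAD2 (4.67 FPKM), MX2 (3.67 FPKM) and IRF7 (2.02 FPKM). IFIT3 was above IFIT2 in 10 of 10 ovaries, with a mean log2 ratio of 1.63 ± 0.23 (SD over 10 ovaries). The other neighbours in this order did not differ beyond their spread. The mean log2 ratio was 0.06 ± 0.24 for ISG15 over MX1, 0.31 ± 0.53 for MX1 over IFIT3 and 0.34 ± 0.60 for IFIT2 over RSAD2. RSAD2 over MX2 (0.45 ± 1.22) and MX2 over IRF7 (0.57 ± 0.88) were wider still, and MX2 was above IRF7 in 5 of 5 luteal ovaries but in only 2 of 5 follicular ovaries. The genes thus formed a higher tier of ISG15, MX1 and IFIT3 and a lower tier of IFIT2, RSAD2, MX2 and IRF7.

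The comparison of single ovaries asked whether the genes vary together. For this, the mean of the phase was subtracted from log2(FPKM + 0.1), so that a difference between the phases does not enter. In follicular ovary 2, 0 of the 7 genes were above their phase mean, with deviations from -2.03 for MX2 to -0.88 for IFIT2. In follicular ovaries 3 and 4 and in luteal ovary 3, 7 of 7 genes were above it, whereas in luteal ovaries 1 and 2 it was 0 of 7. The remaining ovaries were mixed, with 2 genes above the mean in follicular ovary 1, 4 in follicular ovary 5, 5 in luteal ovary 4 and 6 in luteal ovary 5.

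**Figure D2:**
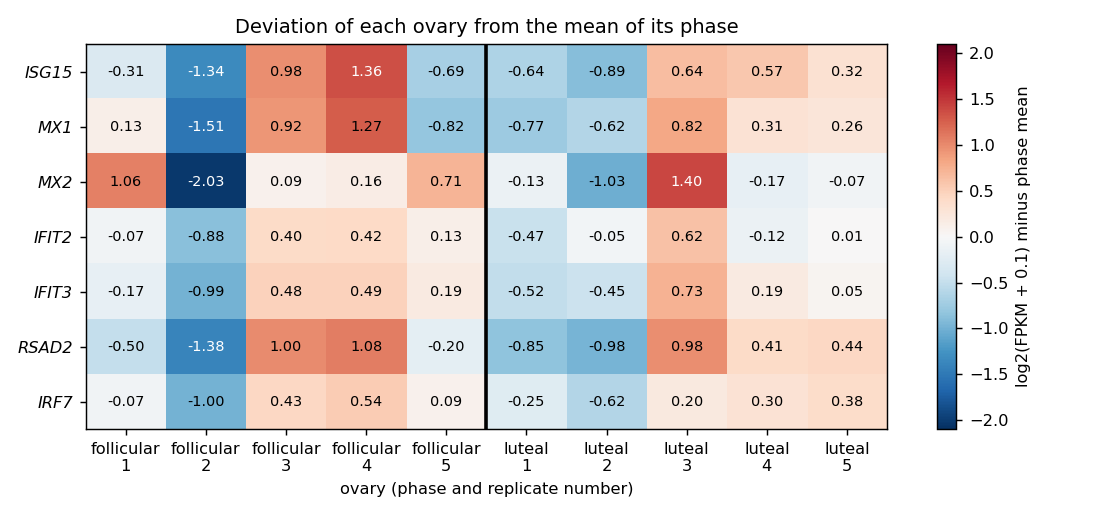
Deviation of each ovary from the mean of its phase, in log2(FPKM + 0.1), with a line of cells per gene and a column per ovary (red above the phase mean, blue below). Follicular ovary 2 and luteal ovaries 1 and 2 are blue for all 7 genes, and follicular ovaries 3 and 4 and luteal ovary 3 are red for all 7.

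The columns of this map correspond to ovaries, and a column of a single colour means that the genes left their phase mean in the same direction. The 21 pairs of genes had phase-centred Pearson r between 0.50 and 0.97 (median 0.86) over the 10 ovaries, and all 21 were positive. By permutation of the ovaries within the phases, 15 of 21 pairs had an adjusted p under 0.05 (12 by Spearman's rho, which lay between 0.42 and 0.96), with adjustment over the 35 relations computed, 7 of which are not reported here. The closest pair was ISG15 with MX1 (r = 0.97, permutation p = 0.00026, adjusted p = 0.00735, rho = 0.96, permutation p = 0.00073, adjusted p = 0.0128). RSAD2 varied with IFIT3 (r = 0.95, permutation p = 0.00042, adjusted p = 0.00735, rho = 0.90, permutation p = 0.00064, adjusted p = 0.0128). IFIT2 and IFIT3 gave r = 0.94 (permutation p = 0.00075, adjusted p = 0.00863, rho = 0.92, permutation p = 0.0021, adjusted p = 0.0147).

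All 15 pairs that passed were pairs without MX2, and their r lay between 0.77 and 0.97. None of the 6 pairs with MX2 passed, although 2 of them had an unadjusted permutation p under 0.05, and their r lay between 0.50 and 0.76. That the pairs with MX2 differ from the others was not tested. Without the 2 ovaries farthest from the median of the first gene, r fell to between 0.17 and 0.38 for the pairs with MX2, which therefore rest on those ovaries. ISG15 with MX1 kept r = 0.94 and IFIT3 with RSAD2 kept r = 0.92 after the same step. ISG15 with IFIT2 fell to 0.60, IFIT2 with IRF7 to 0.63 and MX1 with IFIT2 to 0.68. The 15 pairs without MX2 thus lay between 0.60 and 0.94, and the median over all 21 pairs was 0.76. Follicular ovaries 3 and 4, in which all 7 genes were above their phase mean, were also the closest ovaries of their phase over all genes. With each close pair averaged, which leaves fewer ovaries to permute, the median r was 0.85 and the number of pairs that passed went from 15 to 3.

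**Figure D3:**
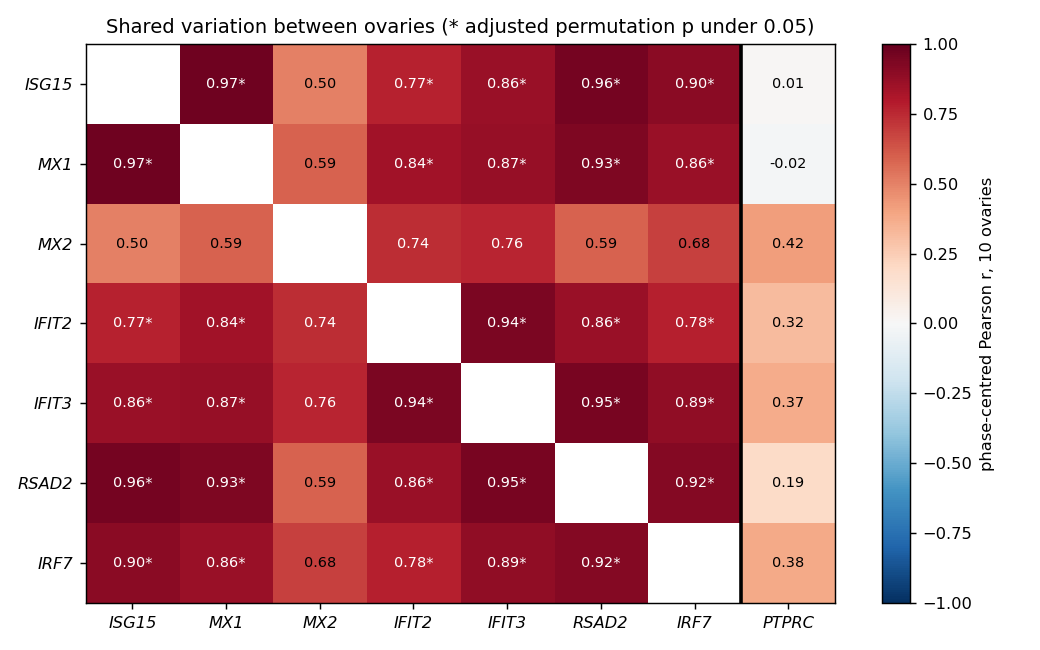
Phase-centred Pearson r over 10 ovaries between the 7 interferon-stimulated genes, and between each of them and PTPRC to the right of the line; a star marks a permutation p under 0.05 after adjustment over 35 relations. The 15 pairs without MX2 reach r of 0.77 to 0.97, the MX2 pairs stay at 0.50 to 0.76, and the PTPRC column lies between -0.02 and 0.42.

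The map of correlations also holds PTPRC, which is no member of the set. For PTPRC, the pan-leukocyte marker CD45, r lay between -0.02 and 0.42, with 0 of 7 relations at an unadjusted permutation p under 0.05. PTPRC stands for leukocytes only, and markers of other cell types are set beside the mean profile of the set further below.

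PTPRC was highest in follicular ovary 5 (16.7 FPKM), an ovary in which 4 of the 7 genes were above their phase mean and 3 were below it (ISG15 at -0.69, MX1 at -0.82 and RSAD2 at -0.20 on the log2 scale). The other follicular ovaries held 7.09 to 9.32 FPKM of PTPRC and the luteal ovaries 8.97 to 12.5 FPKM. Over the list of 12 leukocyte markers, the summed FPKM was 43.4 to 57.1 in the luteal ovaries and 33.6 to 72.3 in the follicular ovaries. Of the 11 markers tested, 1 was called in each direction, with CD8A luteal higher, and MS4A1 was below the filter. The erythroid marker ALAS2, the only blood marker analysed here, stood at no more than 0.0168 FPKM in any ovary.

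The spread of the interferon-stimulated genes between ovaries was wide for their level. The within-phase SD of log2(FPKM + 0.1) was 0.95 for ISG15, 0.95 for MX1, 1.05 for MX2, 0.47 for IFIT2, 0.57 for IFIT3, 0.96 for RSAD2 and 0.53 for IRF7. The median over the 7 genes was 0.95, beside 0.23 over all genes tested. Among the 500 genes nearest in mean level, 99.8% had a lower SD than ISG15, 100% a lower SD than MX1 and 98.4% a lower SD than MX2. For IFIT2, IFIT3, RSAD2 and IRF7 the shares were 94.2%, 98.4%, 98.2% and 87.4%. The median of these shares was 98.4%, and it was 99.0% with the closest ovaries averaged. The SD was larger among the follicular than among the luteal ovaries for each of the 7 genes, for example 1.16 against 0.67 for MX1 and 0.61 against 0.42 for IRF7. Follicular ovary 2, the lowest follicular ovary for all 7 genes, weighs heavily in this. It deviated by -2.03 for MX2, -0.88 for IFIT2, -0.99 for IFIT3 and -1.0 for IRF7. The other follicular ovaries stayed within 1.06, 0.42, 0.49 and 0.54 of the phase mean for the same genes. The order of the SDs without that ovary is not given here. These are descriptions of 5 ovaries a phase, and the difference between the phases in spread was not tested.

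**Figure D4:**
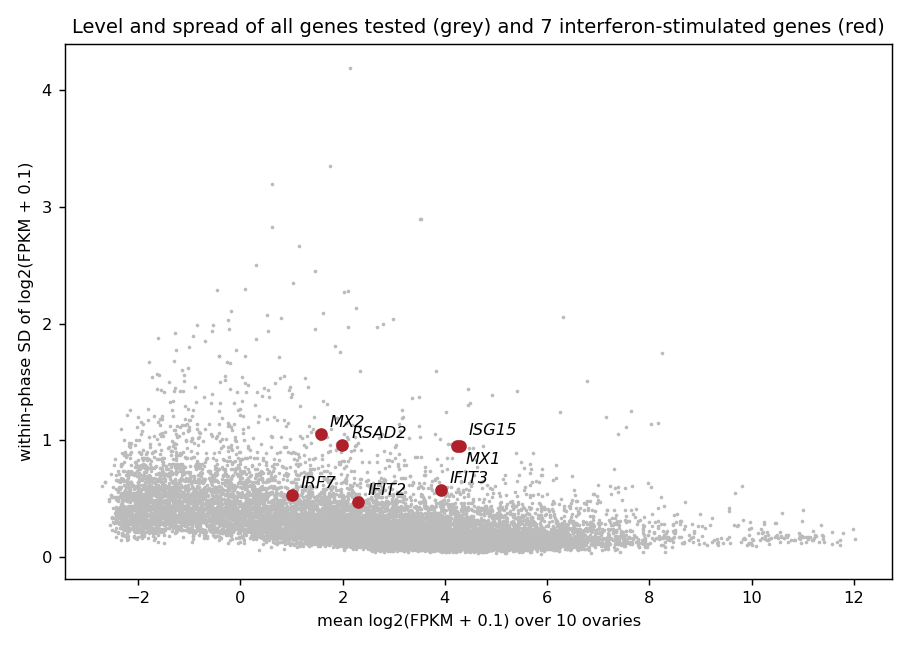
Within-phase SD of log2(FPKM + 0.1) against the mean over 10 ovaries for the 15359 genes tested (grey points) and the 7 interferon-stimulated genes (red points, named). The red points lie between 0.47 and 1.05 on the vertical axis, against a median of 0.23 over all genes.

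In the plot of spread against level, ISG15, MX1 and IFIT3 lie well above the band of genes of their level, while IRF7 and IFIT2 lie at its upper edge. The band is wider for genes of low level, so the comparison with the nearest genes is the one that takes level into account.

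To find the genes whose pattern across ovaries was most like that of the set, the 7 standardised phase-centred profiles were averaged and compared with 12574 genes of a mean FPKM of at least 1. An r of at least 0.8 was reached by 320 of them (2.54%), which describes 10 ovaries and carries no test. The 5 genes most like the set were IFI44L (r = 0.99), SLC25A27 (0.97), IFI44 (0.96), LOC102168687 (0.96) and HERC6 (0.95). IFI44L, IFI44 and HERC6 are known interferon-induced genes, SLC25A27 encodes a mitochondrial carrier, and LOC102168687 is an unnamed protein-coding gene that lies between IFIT5 and IFIT3 in the RefSeq annotation. As it lies among IFIT genes, the caution on fragments shared between copies may hold for LOC102168687 and its r too. With the closest ovaries averaged, which leaves 8, the r of the 5 genes lay between 0.95 and 1.0, and 614 genes (4.88%) reached 0.8. SLC25A27 and IFI44L were then the 2 genes most like the set, while LOC102168687, IFI44 and HERC6 moved to ranks 11, 17 and 28.

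IFI44L, the gene most like the set, had an FPKM of 17.8, 9.08, 28.3, 29.9 and 18.9 in follicular ovaries 1 to 5. Luteal ovaries 1 to 5 held 16.9, 15.0, 31.4, 25.5 and 23.8. IFI44L was picked for its likeness to the set, so that the match of its low and high ovaries follows from the choice. It was low in follicular ovary 2 and luteal ovaries 1 and 2 and high in follicular ovaries 3 and 4 and luteal ovary 3. LOC102168687, next to IFIT3, ran from 9.10 FPKM in follicular ovary 2 to 40.2 FPKM in follicular ovary 4, and from 11.9 FPKM in luteal ovary 2 to 27.6 FPKM in luteal ovary 4. None of the 5 genes was called between the phases, with limma adjusted p-values of 0.659 for IFI44L, 0.15 for SLC25A27, 0.333 for IFI44, 0.731 for LOC102168687 and 0.546 for HERC6. Follicular ovary 2 decided the call for SLC25A27, whose log2 difference was -0.36 with it and -0.50 (limma adjusted p = 0.0325, follicular higher) without it.

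Of the list of other interferon-induced effectors, 12 of the 32 ranked genes reached an r of at least 0.8 with the profile of the set. Besides the 3 named above, these were SAMD9 (0.92), HERC5 (0.90), TNFSF10 (0.88), RTP4 (0.87), UBA7 (0.86), RNF213 (0.85), IFI6 (0.84), IFIT5 (0.83) and XAF1 (0.83). The other ranked effectors were lower, and PSMB9 (-0.45), PSMB8 (-0.37), TAP1 (-0.37) and TRIM25 (-0.19) ran against the profile. DDX58, which encodes the RNA sensor RIG-I, reached 0.88, and the nucleic acid sensor ZBP1 reached 0.84. The transcription factors ranked lower, IRF9 at 0.79 and STAT2 at -0.42. Cell type markers ranged from -0.61 for AMH of granulosa cells to 0.77 for PTGFR of luteal cells, with PTPRC at 0.26. Markers of the same cell type could lie far apart. STAR of luteal cells was at -0.35, the endothelial markers KDR and PECAM1 were at 0.63 and -0.53, and the macrophage markers CSF1R and MRC1 at 0.59 and -0.27. The r of these markers with the profile was not tested. Among genes that neighbour the set in the annotation, AGRN next to ISG15 was at 0.85 and CMPK2 next to RSAD2 at 0.76, while HES4 on the other side of ISG15 was at -0.19, LIPA next to IFIT2 at 0.51 and PHRF1 next to IRF7 at -0.33.

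Around the set, 76 genes of the interferon pathway were found in the table and 73 were tested, of which 15 (20.5%) were called luteal higher, 5 (6.85%) follicular higher and 53 were not called. The luteal phase thus held 75.0% of the calls in these lists, beside 36.3% of the calls over all genes tested. Over all genes tested 15.9% were luteal higher and 27.8% follicular higher, so that the lists stood closer to that background in luteal than in follicular calls, and 27.4% of their genes were called in all beside 43.7%. This split moved with the scaling. It was 90.5% (48.8% over all genes) with the ovaries shifted to the same median, 81.8% (41.8%) with quantiles equalised and 100% (52.5%) as TPM, where 17 genes were called luteal higher and 0 follicular higher. The number of follicular calls also moved with single ovaries, to 3 without follicular ovary 3 or without luteal ovary 2, 4 or 5, and to 8 without luteal ovary 3. It was 2 with the closest ovaries averaged, beside 13 luteal calls.

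Of the 8 interferons listed, IFNE and IFNG were tested and neither was called, IFNK was below the filter, and IFNA1, IFNB1, IFNL3, IFNT2 and IFNW1 were not analysed here. IFNG, the type II interferon of T and NK cells, was at 0.886 ± 0.516 FPKM in luteal and 0.864 ± 0.60 FPKM in follicular ovaries (SD, n = 5 each), with a log2 difference of 0.04 (95% interval -1.04 to 1.13, limma adjusted p = 0.952). Its r with the profile of the set was -0.29. Of the 9 receptors and kinases, 3 were luteal higher, 1 was follicular higher and 5 were not called.

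IFNAR1, a chain of the type I interferon receptor, stood at 26.8 ± 1.60 FPKM in luteal and 20.4 ± 1.48 FPKM in follicular ovaries (SD, n = 5 each), with no overlap between the phases. Its log2 difference was 0.39 (SE 0.07, limma adjusted p = 0.00133). The partner chain IFNAR2 was not called (0.21, SE 0.13, limma adjusted p = 0.207). IFNGR1, the ligand-binding chain of the IFNG receptor, was higher in the luteal phase by 0.59 (SE 0.13, limma adjusted p = 0.00353), and IL10RB, shared by interferon lambda and IL10 family receptors, by 0.39 (SE 0.11, limma adjusted p = 0.0121). The kinase JAK1 was lower in the luteal phase by -0.26 (SE 0.08, limma adjusted p = 0.0244), but this call was lost under several alternatives, at -0.25 to -0.16, and the difference was 0.05 when the highest transcript stood for the gene.

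Of the 9 transcription factors, IRF3, which is activated by nucleic acid sensing, was higher in the luteal phase by 0.40 (SE 0.10, limma adjusted p = 0.0064). STAT2, which carries the signal of type I interferons, was lower by -0.27 (SE 0.06, limma adjusted p = 0.00475), a call that was lost with a shift to a common median (-0.18, limma adjusted p = 0.073) and as TPM (-0.17, limma adjusted p = 0.0762). IRF9, the DNA-binding partner of STAT2, had a log2 difference of 0.03 (SE 0.18, limma adjusted p = 0.913), and IRF1 one of 0.12 (SE 0.18, limma adjusted p = 0.599). That of IRF1 was 0.29 without follicular ovary 2 and 0.05 without follicular ovary 3 (0.03 with the closest ovaries averaged), and that of IRF9 lay between -0.06 and 0.16 over the ovaries left out.

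Of the 15 sensors and adaptors, 4 were luteal higher and 1 was follicular higher. ZBP1 was higher in the luteal phase by 1.07 (SE 0.31, limma adjusted p = 0.0162), the adaptor TICAM1 of TLR3 by 0.96 (SE 0.24, limma adjusted p = 0.00854) and TMEM173, which encodes STING, by 0.86 (SE 0.16, limma adjusted p = 0.00142). MB21D1, which encodes the DNA sensor cGAS upstream of STING, was lower by -0.45 (SE 0.12, limma adjusted p = 0.0128), a call that was lost as TPM at a difference of -0.35 (limma adjusted p = 0.0634). The ZBP1 call was lost with the closest ovaries averaged, at a difference of 1.01 (limma adjusted p = 0.0555), and the TMEM173 call when the highest transcript stood for the gene, at 0.54 (limma adjusted p = 0.102). TICAM1 was low, with means of 0.63 FPKM (luteal) and 0.29 FPKM (follicular), and the size of its difference depended on the pseudocount. It was 0.34 with a pseudocount of 1 and 1.2 with 0.01, and TICAM1 was called in both.

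Of the 5 negative regulators tested, SOCS3 and SOCS1, feedback inhibitors of JAK kinases, were called and both were higher in the luteal phase. USP18 was not analysed here. SOCS3 stood at 51.9 ± 11.5 FPKM in luteal and 15.3 ± 8.24 FPKM in follicular ovaries (SD, n = 5 each), a log2 difference of 1.89 (SE 0.31, limma adjusted p = 0.000766) and the largest among the pathway genes called. SOCS1 differed by 1.07 (SE 0.25, limma adjusted p = 0.00557).

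Of the 33 other interferon-induced effectors tested, 5 were luteal higher, 2 were follicular higher and 26 were not called, with a median log2 difference of 0.17. The shares were 15.2% luteal higher and 6.06% follicular higher, beside 15.9% and 27.8% of all genes tested. LGALS3BP, a secreted glycoprotein, was higher in the luteal phase by 1.05 (SE 0.15, limma adjusted p = 0.000345), and IFI35 by 0.67 (SE 0.10, limma adjusted p = 0.000416). UBA7, the enzyme that activates ISG15 for conjugation, was higher by 0.91 (SE 0.15, limma adjusted p = 0.000825), while ISG15 itself was not called. The ubiquitin ligase TRIM21 was lower by -0.44 (SE 0.12, limma adjusted p = 0.0134) and XAF1 by -0.51 (SE 0.19, limma adjusted p = 0.0463). The XAF1 call was lost under most alternatives, where the difference lay between -0.54 and -0.35. The TRIM21 call was lost as TPM (-0.34, limma adjusted p = 0.066) and with the closest ovaries averaged (-0.40, limma adjusted p = 0.0595).

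**Figure D5:**
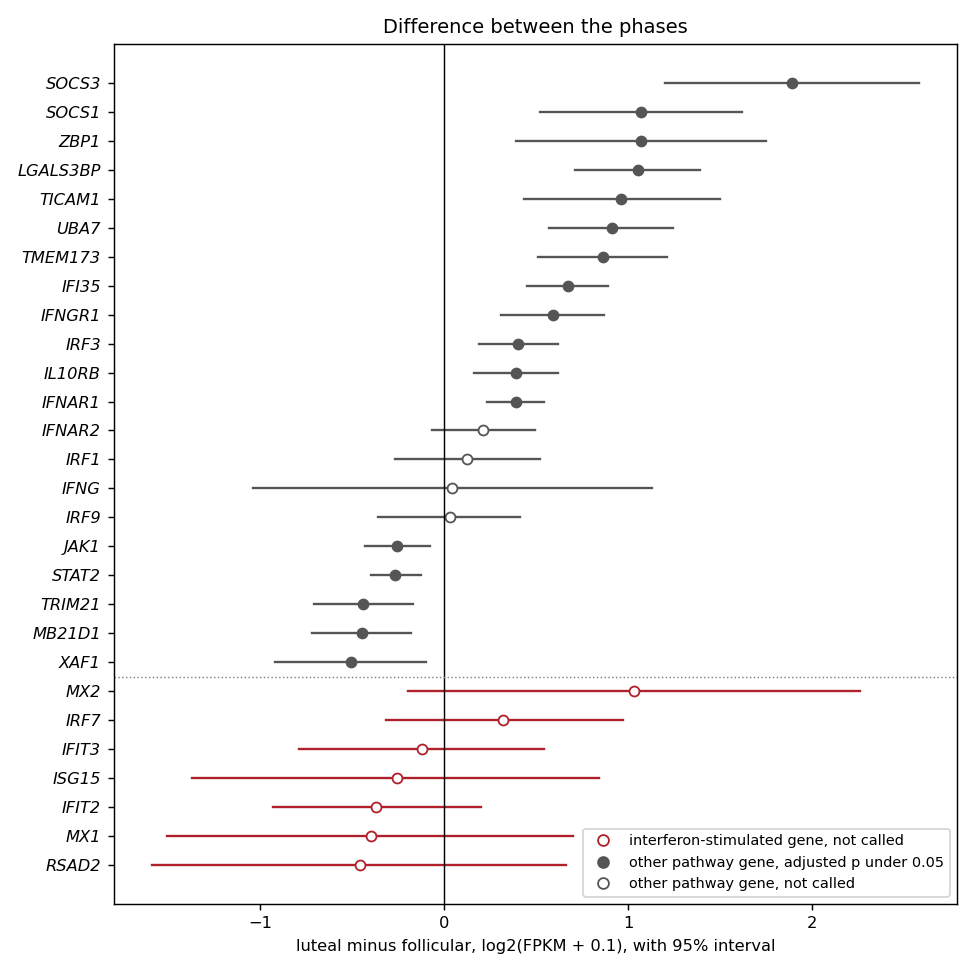
Luteal minus follicular difference on the log2(FPKM + 0.1) scale with its 95% interval for the 7 interferon-stimulated genes (red, lower block) and for the named genes of the interferon pathway (grey, upper block); filled points have a limma adjusted p under 0.05. All 7 red intervals cross 0, and the grey points run from -0.51 for XAF1 to 1.89 for SOCS3.

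The plot of differences places the set beside the named pathway genes, which were chosen for having the largest differences among those called or were fixed by name. The intervals of ISG15, MX1, MX2 and RSAD2 are among the widest in the plot. Markers of other cell types were measured in the same ovaries. The summed FPKM of the 7 macrophage markers was 105 to 166 in the luteal ovaries and 56.6 to 94.4 in the follicular ovaries, with 2 of 7 markers called luteal higher. MRC1 (53.1 FPKM luteal, 20.8 FPKM follicular) was the largest term of that sum in the luteal phase and was called together with CSF1R, whereas CD68 and CD14 were not called, with log2 differences of -0.02 and 0.07. For the 5 endothelial markers it was 184 to 236 and 79.7 to 92.6, with 5 of 5 called luteal higher. No defining marker of these lists was at 0 in all ovaries, and their part in the differences of the pathway genes was not tested. For the 6 granulosa cell markers the sums were 92.0 to 639 and 203 to 1050, with 3 of 6 called follicular higher, for the 5 oocyte markers 6.34 to 12.5 and 12.1 to 27.2, with 4 of 5 called follicular higher, and for the 5 stromal markers 1220 to 2300 and 1230 to 1770, with 1 call in each direction.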

How the data were processed

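The deposited values are FPKM per transcript and ovary. Reads were mapped by the authors with HISAT2, StringTie assembled the transcripts and Cuffdiff gave the FPKM of each ovary, with no pooling. The genome build is not given in the sources used here. The study sums its clean reads over the 10 libraries and states no number for a single ovary, whose depth is therefore unknown, and the spread between ovaries is the only measure of precision. The deposited mRNA and annotated lncRNA tables repeat entries of the transcript table and were not used.

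FPKM of protein-coding transcripts were summed by symbol. Listed symbols absent from the table were matched through RefSeq synonyms. Genes or transcripts that reached an FPKM of 0.1 in 5 or more ovaries entered the test on log2(FPKM + 0.1), luteal minus follicular, two-sided, with limma 3.58.1 (eBayes with trend) in R 4.3.3 and Benjamini-Hochberg adjustment over all features tested. An adjusted p under 0.05 is a call. Log2 differences understate the change of low genes. Shared variation was tested by 100000 permutations of the ovaries within the phases, two-sided, with Python 3.11.15, numpy 2.4.6, pandas 2.3.3 and scipy 1.17.1. Figures used matplotlib 3.10.9. The fits and the permutation test were tested on simulated data.

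Some items are not reported here, although counts, sums and adjustments include them. The genes and lists were chosen with earlier results of these data known. Named were all members of the set and their transcripts, the 3 genes per list and direction with the largest difference among those called, pathway genes fixed by name and the 5 genes most like the set. IFI6 was named after its values were seen, as were the neighbouring genes and the effectors and sensors with an r of at least 0.8. The same holds for the effectors with a negative r and the cell type markers given with their r. As alternatives, the scale was changed (TPM, a shift to the same median, quantile normalization), the pseudocount was set to 1 or 0.01, the filter was dropped or raised to 0.5 FPKM, and the fit was repeated without the trend, with a replicate block, with an unadjusted p, with the highest transcript per symbol and leaving out each ovary in turn. Averaging the closest ovaries was chosen after seeing the data.

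Whether equal replicate numbers pair the ovaries or mark a batch is not given in the labels. Over all genes tested, the deviations of same-numbered ovaries from their phase means correlated by 0.03 to 0.20. Of the 5 numbers, 2 matched best in both directions, which does not decide the question. For the 7 interferon-stimulated genes, the mean standardised deviation was -0.04, -1.8, 0.85, 1.04 and -0.05 in follicular ovaries 1 to 5. In luteal ovaries 1 to 5 it was -0.74, -0.86, 1.04, 0.28 and 0.28. A link by number was not tested for these genes.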

Additional observations from a re-analysis of the deposited data

Results flagged for a closer look

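In 66 groups of 5 ovaries (33 genes of the text in 2 phases), 4 held an ovary whose gap to the nearest other was more than 0.71 of the range of the group, where chance gives about 1 in 20, or 3.3. MX2 was at 11.1 FPKM in luteal ovary 3, with the other luteal ovaries at 1.97 to 3.95. TRIM21 was at 10.8 FPKM in the same ovary, with the others at 7.45 to 8.19. ZBP1 was at 0.468 FPKM in follicular ovary 2, the ovary in which all 7 interferon-stimulated genes were lowest among the follicular ovaries, with the others at 1.03 to 1.15. IFNGR1 was at 56.6 FPKM in follicular ovary 5, with the others at 42.3 to 46.1.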

How the results depend on the processing

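Leaving out 1 ovary at a time moved the member genes called follicular higher between 0 and 1 (IFIT2 without follicular ovary 2), the member transcripts called luteal higher between 0 and 1, the pathway genes called luteal higher between 14 and 17 and follicular higher between 3 and 8, the pairs with an adjusted p under 0.05 between 10 and 16, and the median r of all member pairs between 0.77 and 0.93. Pathway genes called follicular higher numbered 2 after a shift to a common median, 0 as TPM, 3 with the highest transcript and 2 with the closest ovaries averaged. That averaging left 3 pairs. The causes were not tested. With the replicate block, 0 member genes and 1 member transcript (XM_018051642.1, limma adjusted p = 0.0238) were called. The limma adjusted p of each of the 7 genes was lower than in the main fit, for example 0.0601 for MX2 and 0.0928 for RSAD2. SLC25A27 was called follicular higher (limma adjusted p = 0.0476), 8 pairs passed and the median r was 0.65. Whether the numbers pair the ovaries is not given in the labels.

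Some uncalled differences changed sign. Over the ovaries left out, the log2 difference ran from -0.60 to 0.08 for ISG15 (also as XM_005690795.3), from -0.37 to 0.01 for IFIT3 (also as XM_018041262.1), from -0.17 to 0.39 for IFNG, from -0.06 to 0.16 for IRF9, from -0.09 to 0.34 for IFI44L, from -0.50 to 0.03 for LOC102168687 and from -0.40 to 0.20 for XM_018051653.1. With the closest ovaries averaged, IFNG was -0.22. JAK1, a called gene, was 0.05 with the highest transcript. Of the comparisons with an ovary left out, 373 of 410 kept direction and side of the threshold, as did 421 of 442 under the remaining alternatives. The depth of each ovary is unknown, and 5 ovaries a phase leave wide intervals.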

Other observations

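IFI6, an interferon-induced mitochondrial protein, was named after its values were seen. Its FPKM was 210, 124, 1650, 697 and 531 in luteal ovaries 1 to 5, and 68.5 to 208 in the follicular ovaries. Luteal ovaries 1, 3, 4 and 5 were above every follicular ovary, ovary 1 by 210 to 208 FPKM, and luteal ovary 2 was not. Its log2 difference was 1.49 (SE 0.61, 95% interval 0.16 to 2.82), with an unadjusted p of 0.031 and a limma adjusted p of 0.0658. Its r with the profile of the 7 interferon-stimulated genes was 0.84.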
